A study of Mus musculus with 56 samples.

Results

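RNA held by tagged ribosomes of muscle fibres was compared with RNA of the whole muscle in mice labelled as HuR knockouts. HuR, encoded by Elavl1, is an RNA-binding protein. The comparison used 14 ribosomal and 14 total RNA libraries, chosen by genotype and RNA type, out of 56 libraries in the series. All mice carried a GFP-tagged L10A ribosomal protein that Cre recombinase switched on, with Cre driven by the Mlc1f promoter, and were 20 to 22 weeks old. The knockouts also carried a floxed Elavl1 gene, and the other 28 libraries came from controls with the tag but without that floxed gene, as far as the labels say. Each sex and genotype had 7 mice, and gastrocnemius, a mixed calf muscle rich in fast fibres, was the tissue. Total RNA was prepared from whole homogenate and ribosomal RNA by pulling down tagged ribosomes. Both were read with a 3' tag method, which counts transcript ends, so that long transcripts do not give more reads than short ones. Values below are CPM, that is, counts scaled to 1e6 per library on normalised library sizes. A log2 fold change is ribosomal over total, so a positive value is higher in ribosomal RNA.

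Muscle fibres are large cells packed with sarcomeres, membrane systems that release calcium, and mitochondria. Between them lie vessels, fibroblasts, nerve, immune cells and satellite cells. Cre, which switched on the tag, was driven by a promoter of a fast myosin light chain so as to mark fibre ribosomes. An mRNA under translation is bound by ribosomes. RNA kept in the nucleus, RNA inside mitochondria, which have their own ribosomes, and mRNA held out of translation are bound little by the tagged ribosomes. HuR binds AU-rich and U-rich stretches, mostly in 3' untranslated regions (UTRs), and is known to affect the stability and translation of the mRNAs it binds.

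Ribosomal libraries of knockouts held 0.160 to 3.58 M gene counts (M stands for 1e6) and total libraries 2.63 to 5.85 M. Male knockout ribosomal library 2 was the shallowest, at 0.160 M, and stood apart: 3.01% of its counts came from mitochondrial genes, against 0.299 to 0.804% in the other 6 male knockout ribosomal libraries. In the 7 female knockout ribosomal libraries that share was 1.52 to 4.77%, and in the 14 knockout total libraries 5.25 to 9.82%. Without that male library 8924 genes were called in place of 8823. Fibre identity of the tissue was checked by its defining genes: summed fast sarcomere genes held 119789 to 358821 CPM (median 226703) in ribosomal libraries and 53819 to 94933 CPM (median 79398) in total libraries, with no overlap.

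Elavl1 itself (ENSMUSG00000040028) had 51.7 to 164 CPM (median 95.3) in ribosomal RNA, against 43.5 to 81 CPM (median 70.7) in total RNA. The ranges overlapped, 12 of 14 mice had more in ribosomal than in total RNA, and the log2 fold change was 0.53 (SE 0.109, adjusted p = 4.6e-05). It was 0.29 in males and 0.79 in females, with no difference past the threshold (adjusted p = 0.0735), and it stood at −0.00074 for both sexes when libraries were scaled by their sizes alone. On the scale of all 56 libraries, knockout total RNA held 43.4 to 81.1 CPM (median 70.8), against 53.6 to 101 CPM (median 69.5) in control total RNA. The label was thus not mirrored in the total RNA counts of this gene, which also take in cells between the fibres. Which exons were floxed is not stated in the labels, and a 3' tag outside the deleted part checks nothing. Genotypes are therefore those of the labels throughout.

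Of 11879 genes tested, 8823 (74.3%) differed between ribosomal and total RNA at an adjusted p under 0.05. Of these, 3885 (32.7%) were higher and 4938 (41.6%) lower in ribosomal RNA. Past 2-fold, 1107 genes (9.32%) were higher and 2691 (22.7%) lower. In 838 genes (7.05%) every ribosomal library was above every total library, and in 917 (7.72%) every one was below. The median over all tested genes was −0.11 on the log2 scale, and it moved to −0.26 with RLE factors and −0.62 with library sizes alone, so list medians below are read against the median of all genes. Every count of called genes in a list below is likewise to be read against the 32.7% higher and 41.6% lower of all genes. Under library sizes alone 18.2% of the called genes were higher, against 44.0% with TMM, and the split was 36.7% with RLE factors. In whole muscle, fewer cells of a type and less RNA per cell cannot be told apart.

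The largest rises in ribosomal RNA included contractile, glycolytic and mitochondrial genes. Taco1, an activator of mitochondrial cytochrome oxidase translation, had 19.5 to 124 CPM (median 39.7) in ribosomal RNA, against 4.02 to 11.1 CPM (median 6.97) in total RNA, a log2 fold change of 2.59 (SE 0.207, adjusted p = 2.58e-13). Tnnc2 (ENSMUSG00000017300), the calcium-binding troponin subunit of fast fibres, had 15682 to 58088 CPM (median 31883) in ribosomal RNA, against 4167 to 8438 CPM (median 6114) in total RNA, a fold change of 2.45 (SE 0.165, adjusted p = 3.21e-15) on the log2 scale. No ribosomal library overlapped a total library in either gene. Pgam2, the muscle phosphoglycerate mutase of glycolysis, had 3189 to 8810 CPM (median 5146) in ribosomal RNA, against 949 to 1330 CPM (median 1149) in total RNA. Its log2 fold change was 2.26 (SE 0.131, adjusted p = 8.68e-17). Chchd2, a small protein of the mitochondrial intermembrane space, had 2607 to 8293 CPM (median 4900) in ribosomal RNA, against 921 to 1162 CPM (median 1012) in total RNA, and the log2 fold change came to 2.25 (SE 0.122, adjusted p = 1.77e-17). Every mouse had more of these 4 mRNAs in ribosomal than in total RNA.

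Mybpc2, the fast myosin-binding protein C, was higher by 2.20 (SE 0.133, adjusted p = 2.34e-16) on the log2 scale, with 3148 to 12399 CPM (median 5953) in ribosomal RNA, against 1188 to 1671 CPM (median 1355) in total RNA. Coq7, an enzyme of coenzyme Q synthesis, was higher by 2.23 (SE 0.122, adjusted p = 2.12e-17). Atg101, a subunit of the complex that starts autophagy, was higher by 2.21 (SE 0.109, adjusted p = 2.96e-18). The rest of the 12 largest rises were Med29, a Mediator subunit, at 2.44, Lrtm1 at 2.40, Ccdc85b at 2.35, Ggnbp1 at 2.35 and Golga7b at 2.25. All 12 were higher in ribosomal RNA in 14 of 14 mice.

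The largest falls held RNAs that cytosolic ribosomes do not translate and mRNAs of cells between the fibres. The mitochondrial tRNA genes mt-Ta, mt-Tq, mt-Tl1 and mt-Tv had log2 fold changes of −5.80, −4.79, −4.46 and −4.34. The small nucleolar RNA genes Snord13 and Snord89 stood at −4.31 and −3.98. Reads on such short genes can come from longer transcripts that overlap them, so which RNA they count is uncertain. Igfbp7 (ENSMUSG00000036256), a secreted protein of vessel walls, had 0 to 15.1 CPM (median 6.77) in ribosomal RNA, against 51.3 to 137 CPM (median 113) in total RNA. Its log2 fold change was −4.14 (SE 0.187, adjusted p = 4.89e-19), and every ribosomal library lay below every total library.

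Serping1, the C1 inhibitor of complement, had 3.01 to 24.7 CPM (median 10.04) in ribosomal RNA, against 73.2 to 169 CPM (median 137) in total RNA and a log2 fold change of −3.84 (SE 0.182, adjusted p = 1.17e-18). Prg4, a lubricating proteoglycan, Aspn, a matrix proteoglycan, and Itgbl1 were also among the 12 largest falls, at −3.59, −3.57 and −3.54. Each of the named falls was lower in ribosomal RNA in 14 of 14 mice.

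**Figure D1:**
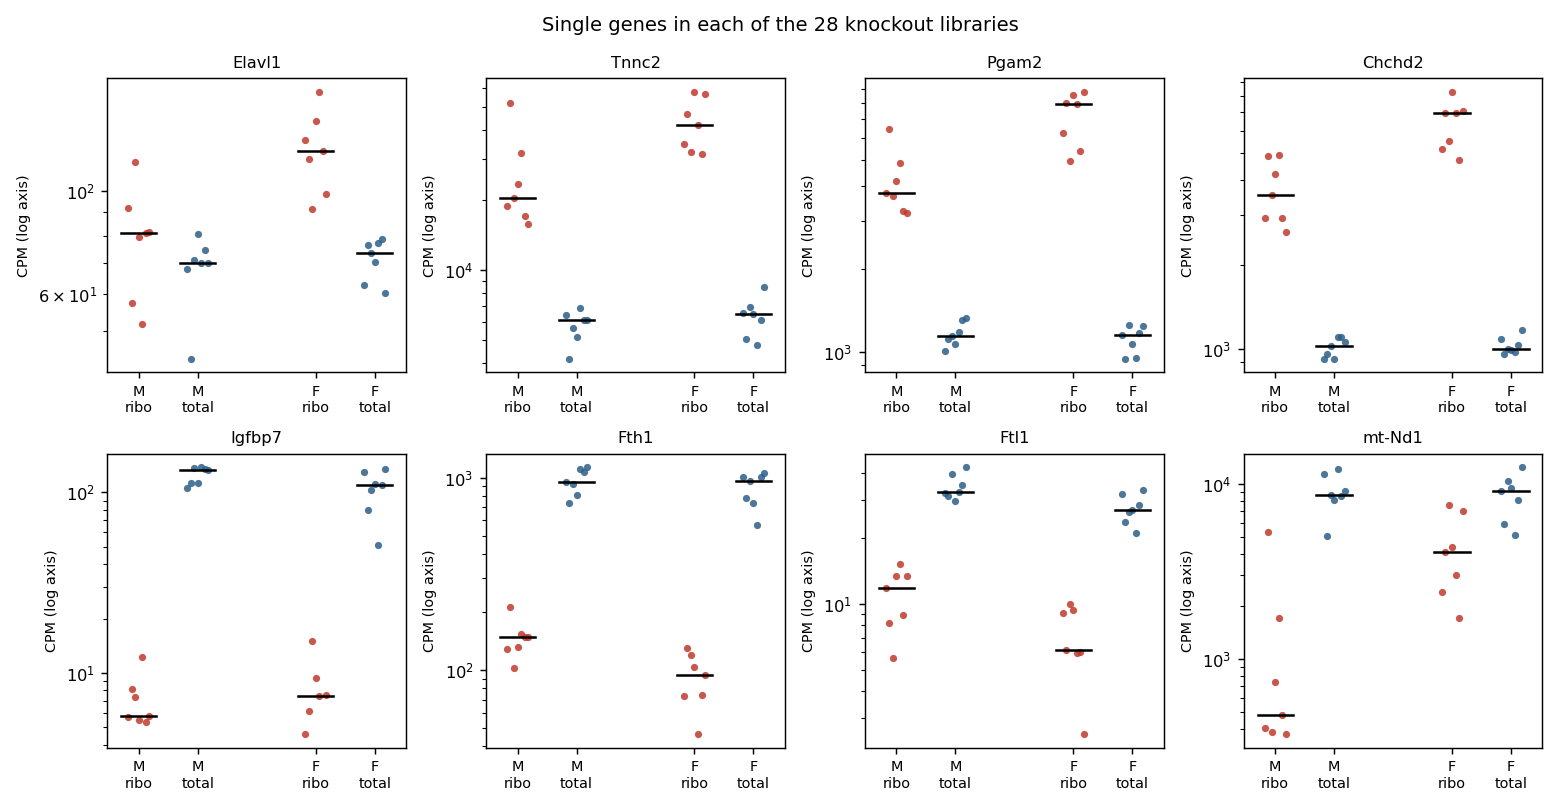
Level of 8 genes in each of the 28 knockout libraries, in CPM on a log axis, for males (M) and females (F), ribosomal RNA (ribo, red) left of total RNA (blue), with a bar at the median of 7 libraries. Tnnc2, Pgam2 and Chchd2 separate upward in ribosomal RNA, Igfbp7, Fth1 and Ftl1 separate downward, Elavl1 overlaps in males, and mt-Nd1 overlaps in females and in male library 2.

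Most fast sarcomere genes were higher in fibre ribosomes. Of 18 fast sarcomere genes tested, 13 were called higher and 1 lower, against 32.7% and 41.6% of all genes, with a median log2 fold change of 1.31. Tnnt3, fast troponin T, had 13739 to 41679 CPM (median 24070) in ribosomal RNA, against 4753 to 8421 CPM (median 6499) in total RNA. Tpm1, a tropomyosin, had 14600 to 45561 CPM (median 24196) in ribosomal RNA, against 5759 to 9803 CPM (median 7818) in total RNA. Their log2 fold changes were 1.86 (SE 0.121, adjusted p = 1.44e-15) and 1.63 (SE 0.12, adjusted p = 3.04e-14). Both genes separated the RNA types with no overlap.

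Myh4, the fastest myosin heavy chain, had 8530 to 42376 CPM (median 17338) in ribosomal RNA, against 6369 to 12167 CPM (median 9157) in total RNA, so the ranges overlapped, and its log2 fold change was 0.98 (SE 0.16, adjusted p = 1.39e-06). Neb, which encodes nebulin, the ruler of the thin filament, was the member called lower, with 2048 to 3924 CPM (median 2690) in ribosomal RNA, against 3164 to 6613 CPM (median 4482) in total RNA and a log2 fold change of −0.66 (SE 0.1, adjusted p = 4.04e-07). Ttn (ENSMUSG00000051747), which encodes titin, the molecular spring of the sarcomere, had 6327 to 19554 CPM (median 8919) in ribosomal RNA, against 5925 to 24310 CPM (median 9447) in total RNA, a value of −0.05 (SE 0.152, adjusted p = 0.768). The heavy chains Myh1 and Myh2 also missed the threshold, at 0.34 (SE 0.178, adjusted p = 0.0818) and 0.11 (SE 0.186, adjusted p = 0.608). Mylk2, the skeletal myosin light chain kinase, was the other member not called, at −0.10 (SE 0.106, adjusted p = 0.386). These 5 genes were singled out after their values were seen.

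Slow fibre genes were mostly higher too. Of 12 genes tested, 9 were called higher and the other 3 did not pass the test, with a median of 1.02 on the log2 scale. Myl3, the slow ventricular light chain, had 1741 to 5747 CPM (median 3229) in ribosomal RNA, against 495 to 1048 CPM (median 815) in total RNA, a log2 fold change of 1.94 (SE 0.107, adjusted p = 3.12e-17). Tnnc1 and Tnnt1, slow troponin C and T, stood at 2.02 (SE 0.156, adjusted p = 9.31e-14) and 1.83 (SE 0.175, adjusted p = 2.18e-11). Mybpc1, slow myosin-binding protein C, was at 1.08 (SE 0.124, adjusted p = 1.34e-09). Tnnc1, for one, had 369 to 1688 CPM (median 749) in ribosomal RNA, against 76.5 to 378 CPM (median 175) in total RNA, ranges that overlapped slightly.

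Genes of excitation-contraction coupling, which turns a nerve impulse into calcium release, were largely higher. Of 20 genes tested, 17 were called higher and the other 3 did not pass the test. Their median was 1.02 on the log2 scale. Atp2a1, the SERCA1 pump that returns calcium to its store, had 4161 to 15361 CPM (median 7992) in ribosomal RNA, against 1681 to 3175 CPM (median 2736) in total RNA, a log2 fold change of 1.56 (SE 0.115, adjusted p = 3.08e-14). Casq1, calsequestrin, which buffers stored calcium, was higher by 1.27 (SE 0.0932, adjusted p = 2.58e-14) and Hrc by 1.41 (SE 0.105, adjusted p = 3.49e-14). Trdn, triadin, showed 0.47 (SE 0.102, adjusted p = 9.32e-05), and its sign turned under library sizes alone.

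The tested micropeptide genes that tune the calcium pump gave no common direction, and the fusion gene Mymx of the same list was not tested. Mrln, which encodes myoregulin, stood at 0.27 (SE 0.106, adjusted p = 0.0232) and 1810037I17Rik at 0.40 (SE 0.111, adjusted p = 0.00155), and both fell below 0 under library sizes alone. The call of Mrln was lost without male ribosomal library 13 and without male total library 6 (adjusted p = 0.0552). Pln, phospholamban, was lower at −0.75 (SE 0.194, adjusted p = 0.000791), while Sln, sarcolipin, had −0.29 (adjusted p = 0.335).

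The dystrophin complex, which ties the cytoskeleton to the matrix, had genes of both directions. Of 14 genes tested, 6 were called higher, 7 lower and 1 did not pass the test, shares near the 32.7% higher and 41.6% lower of all genes. Dtna, dystrobrevin alpha, was at 0.26 (SE 0.0888, adjusted p = 0.00889) on the log2 scale, and its sign turned under library sizes alone. Dmd, dystrophin itself, had 77.7 to 284 CPM (median 112) in ribosomal RNA, against 176 to 549 CPM (median 261) in total RNA, with −1.16 (SE 0.138, adjusted p = 2.57e-09). Utrn, utrophin, stood at −1.70 (SE 0.161, adjusted p = 1.52e-11). In Utrn the RNA types did not overlap, whereas in Dmd they did.

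At the neuromuscular junction 7 of 14 genes were called higher and 2 lower, against 32.7% higher and 41.6% lower of all genes. The list median of 0.35 fell below 0 under library sizes alone. Chrna1, the acetylcholine receptor alpha subunit, had 40.9 to 157 CPM (median 110.4) in ribosomal RNA, against 51.7 to 109 CPM (median 76.8) in total RNA, a log2 fold change of 0.54 (SE 0.128, adjusted p = 0.000287). Among 19 myogenic regulators 8 were higher and 5 lower, against the same shares of all genes. Nfix, a transcription factor of the fetal-to-adult switch in muscle, had 803 to 1472 CPM (median 1088) in ribosomal RNA, against 298 to 409 CPM (median 354) in total RNA, a change of 1.65 (SE 0.0867, adjusted p = 8.68e-18). Mef2c, a transcription factor of differentiated fibres, was at −0.02 (adjusted p = 0.863).

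Most genes of glycolysis and glycogen breakdown were higher in ribosomal RNA. Of 20 genes tested, 15 were called higher, 1 lower and 4 did not pass the test. Aldoa, the muscle aldolase, had 5942 to 14037 CPM (median 10753) in ribosomal RNA, against 2118 to 3902 CPM (median 3236) in total RNA, a log2 fold change of 1.66 (SE 0.115, adjusted p = 5.92e-15). Eno3, muscle enolase, was higher by 0.72 (SE 0.109, adjusted p = 4.1e-07) and Pygm, the glycogen phosphorylase of muscle, by 0.59 (SE 0.0983, adjusted p = 2.1e-06). The glycolysis median of 0.54 moved to −0.006 under library sizes alone. Ckm, muscle creatine kinase, had 7265 to 25130 CPM (median 15260) in ribosomal RNA, against 2294 to 4915 CPM (median 4194) in total RNA, and its log2 fold change was 1.80 (SE 0.145, adjusted p = 2.7e-13). Ak1, adenylate kinase, was higher by 1.46 (SE 0.0866, adjusted p = 1.45e-16).

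Nuclear genes for oxidative phosphorylation (OXPHOS) were higher in 35 of 47 cases and the other 12 did not pass the test, with a median of 0.79 on the log2 scale. Atp5g3, which encodes the ring subunit c of ATP synthase, had 2816 to 7551 CPM (median 4738) in ribosomal RNA, against 1037 to 1666 CPM (median 1329) in total RNA, a change of 1.79 (SE 0.111, adjusted p = 4.06e-16). Atp5a1, the catalytic-head alpha subunit, was higher by 0.85 (SE 0.0916, adjusted p = 2.99e-10) and Cox6c, a cytochrome oxidase subunit, by 0.99 (SE 0.0989, adjusted p = 5.44e-11). The 8 mitochondrially encoded mRNAs tested, which make partner subunits of the same complexes on mitochondrial ribosomes, were all called lower, with a median of −2.35. The Krebs cycle list had 17 of 20 genes higher, but its median of 0.38 fell below 0 under library sizes alone. In fatty acid oxidation 10 of 21 were higher and 3 lower, against 32.7% higher and 41.6% lower of all genes. Among them Etfb, an electron carrier subunit, stood at 1.67 (SE 0.115, adjusted p = 4.88e-15) and Cd36, a fatty acid transporter also made by endothelium, at −0.45 (SE 0.113, adjusted p = 0.000516).

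**Figure D2:**
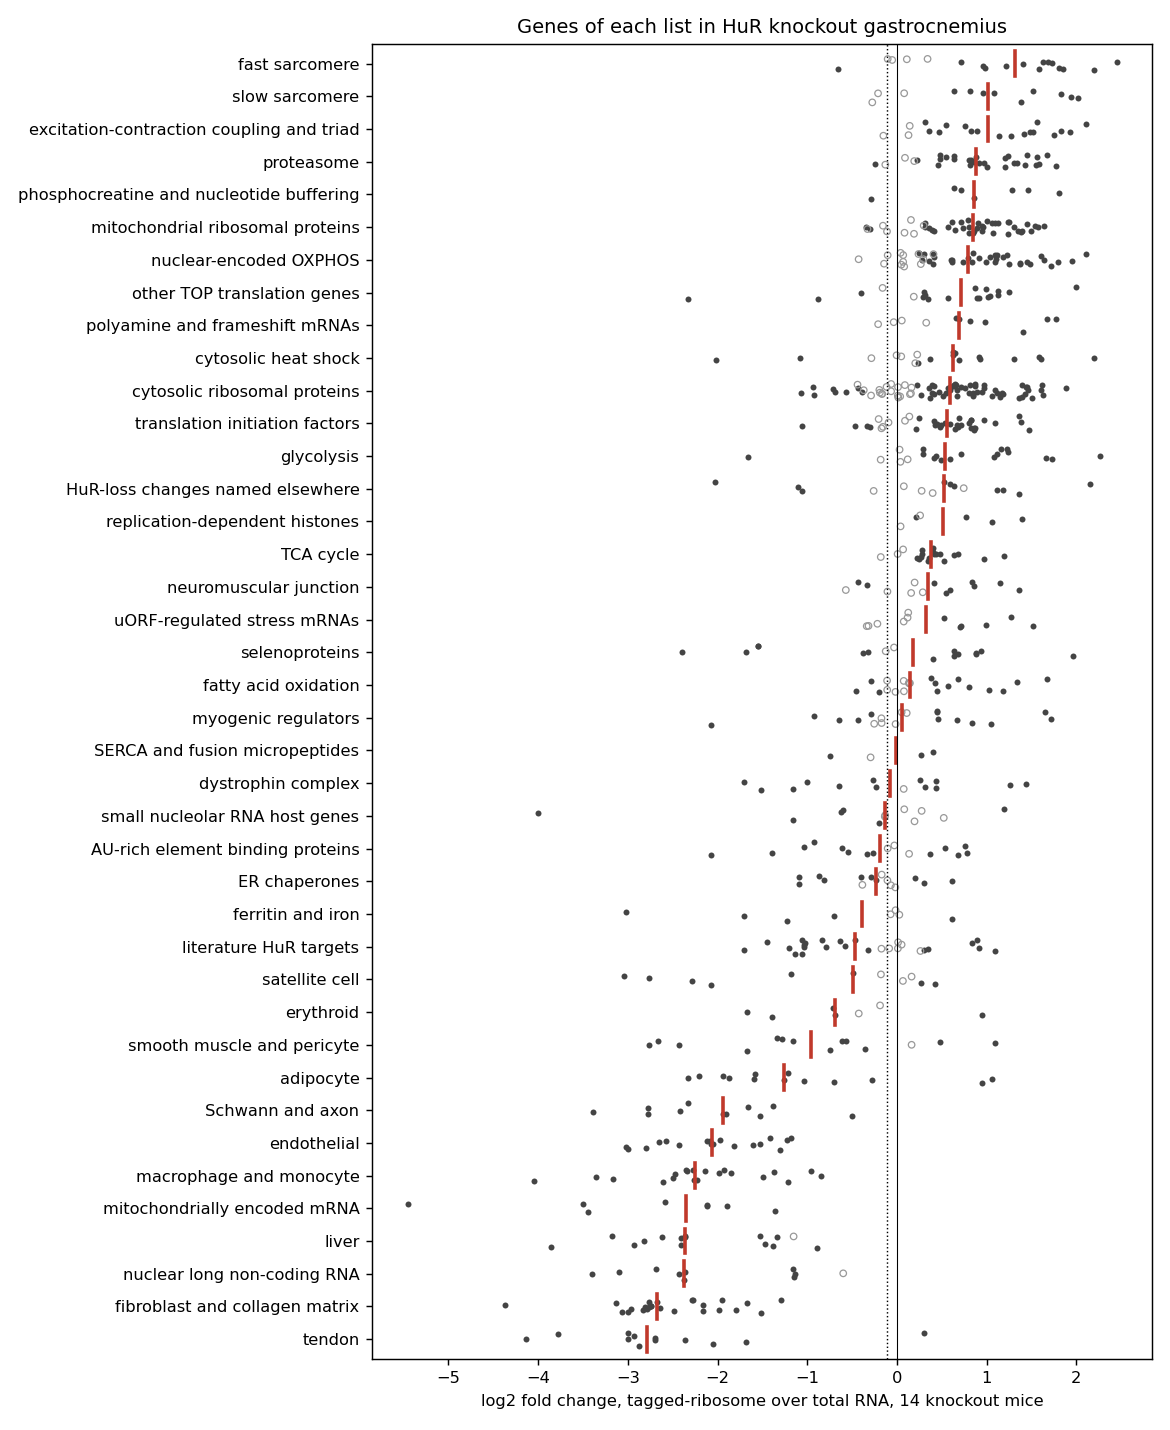
Log2 fold change, ribosomal over total RNA, of every tested gene of each list with 4 or more tested genes, in the 14 knockout mice. Filled points passed the test and open points did not, the red bar is the list median, the solid line is 0 and the dotted line is the median of all tested genes (−0.11), with lists sorted from the highest median, fast sarcomere at 1.31, to the lowest, tendon at −2.79. The medians of glycolysis, TCA cycle, neuromuscular junction, uORF-regulated mRNAs, selenoproteins and histones fall below 0 under library sizes alone.

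The translation machinery was itself higher on fibre ribosomes. In the list of cytosolic ribosomal proteins 52 of 78 genes tested were called higher, 8 lower and 18 did not pass the test. Of all genes 32.7% were higher and 41.6% lower. The list median was 0.59 on the log2 scale. Rplp1, a stalk protein of the large subunit, had 797 to 3130 CPM (median 1443) in ribosomal RNA, against 447 to 728 CPM (median 607) in total RNA, a log2 fold change of 1.42 (SE 0.136, adjusted p = 2.09e-11). Rps20 and Rps24 of the small subunit were higher by 1.15 (SE 0.124, adjusted p = 3.25e-10) and 1.45 (SE 0.145, adjusted p = 6.07e-11). At the ends of the list, Rpsa stood at 1.89 (SE 0.159, adjusted p = 9.63e-13) and Rps27 at −1.07 (SE 0.142, adjusted p = 2.58e-08), both named after their values were seen. Many of these genes have near-identical pseudogenes and reads that did not align uniquely were not counted, so single members are uncertain.

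Elongation factors, whose mRNAs carry the same terminal oligopyrimidine (TOP) start as ribosomal protein mRNAs, were mostly higher too. Of 20 other TOP genes tested, 15 were higher and 3 lower. Eef1a2, the elongation factor 1 alpha form of adult muscle, had 702 to 1069 CPM (median 899) in ribosomal RNA, against 361 to 545 CPM (median 432) in total RNA, a log2 fold change of 1.03 (SE 0.0779, adjusted p = 5.26e-14). Eef2, the translocation factor, was higher by 1.02 (SE 0.0739, adjusted p = 1.96e-14). Eef1a1, the widely made form of elongation factor 1 alpha, was lower at −0.40 (SE 0.121, adjusted p = 0.00363), and was named after its value was seen. Initiation factors were higher in 26 of 36 cases and lower in 4, with Eif3c, a core subunit of factor 3, at 1.36 (SE 0.113, adjusted p = 6.78e-13). Eif1 and Eif4g2 stood at 0.48 and 0.44, and both fell below 0 under library sizes alone.

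Mitochondrial ribosomal proteins, which are made in the cytosol, were higher in 37 of 46 cases, with a median of 0.85. Mrps16 had 246 to 516 CPM (median 361) in ribosomal RNA, against 104 to 146 CPM (median 122) in total RNA, with a log2 fold change of 1.57 (SE 0.0878, adjusted p = 3.38e-17) and no overlap. Proteasome genes were higher in 27 of 31 cases, with a median of 0.88. Psmb1, a core beta subunit, had 591 to 1492 CPM (median 889.5) in ribosomal RNA, against 269 to 386 CPM (median 306) in total RNA, a log2 fold change of 1.59 (SE 0.116, adjusted p = 2.3e-14), and Psmd2, a subunit of the cap, was higher by 1.56 (SE 0.0945, adjusted p = 2.38e-16).

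Most cytosolic heat shock genes were higher. Among 19 cytosolic members 12 were higher and 2 lower, with a median of 0.62. Hspb8, a small heat shock protein of chaperone-assisted autophagy, had 1920 to 7701 CPM (median 3060) in ribosomal RNA, against 499.9 to 1315 CPM (median 665) in total RNA, a log2 fold change of 2.19 (SE 0.154, adjusted p = 8.76e-15). Hsp90ab1, a cytosolic HSP90, was higher by 1.61 (SE 0.101, adjusted p = 5.78e-16). Of 15 chaperone genes of the endoplasmic reticulum (ER) 3 were higher and 7 lower, against 32.7% and 41.6% of all genes, with a median of −0.23. The lists were not tested against each other. Hspa5, the ER chaperone BiP, had 379 to 631 CPM (median 429) in ribosomal RNA, against 397 to 627 CPM (median 476) in total RNA, a value of −0.07 (adjusted p = 0.46).

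Messages known for control at the ribosome were described next. Atf4, a stress transcription factor whose upstream open reading frames (uORFs) limit its translation in unstressed cells, had 405 to 1037 CPM (median 573) in ribosomal RNA, against 206 to 292 CPM (median 247) in total RNA, a log2 fold change of 1.27 (SE 0.0953, adjusted p = 4.53e-14). Ibtk, another uORF-regulated mRNA, was higher by 1.52 (SE 0.0859, adjusted p = 4.81e-17). In that list 6 of 12 were higher, against 32.7% of all genes, and the other 6 did not pass the test. The list median of 0.32 fell below 0 under library sizes alone. Oaz1 and Oaz2, the antizymes that need a frameshift and limit polyamine levels, had log2 fold changes of 1.68 (SE 0.0751, adjusted p = 4.4e-19) and 1.78 (SE 0.102, adjusted p = 7.29e-17). Oaz1, with 340.02 to 541 CPM (median 476) in ribosomal RNA, against 117 to 183 CPM (median 147) in total RNA, showed no overlap. Selenow, a selenoprotein abundant in muscle, was higher by 1.97 (SE 0.114, adjusted p = 8.42e-17). Among 16 selenoproteins 8 were higher and 6 lower, against 32.7% higher and 41.6% lower of all genes. The list median of 0.18 fell below 0 under library sizes alone.

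Ferritin mRNAs stood at the other end. Their 5' UTRs carry an iron-responsive element (IRE), a hairpin to which iron regulatory proteins bind and so keep the mRNA off ribosomes when iron is low. The elements below are shown for both ferritin mRNAs and, for comparison, for other known IRE carriers. They were found in the GENCODE M21 transcripts of build GRCm38 and are printed 5′ to 3′ in the sense of the mRNA, with the conserved loop CAGTGN, where N stands for A, C or T, in capitals and its paired stem on both sides.
Fth1 (chr19:9982732-9982760, plus strand): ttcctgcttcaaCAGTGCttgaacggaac
Ftl1 (chr7:45459779-45459807, minus strand): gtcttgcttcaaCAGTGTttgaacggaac
Slc40a1 (chr1:45925465-45925493, minus strand): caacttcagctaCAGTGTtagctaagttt
Alas2 (chrX, plus strand, across a splice junction between 150547458 and 150552149): ttggttcgtcctCAGTGCagggcaacagg

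A search of the sense strand of 5' UTRs for the loop with 5 paired bases on each side of it and a bulged C found 21 of 21760 coding genes (0.0965%), of which 15 were tested. Matches are described by sequence only. Fth1 (ENSMUSG00000024661), the ferritin heavy chain, had 46.2 to 213 CPM (median 124) in ribosomal RNA, against 565 to 1130 CPM (median 952) in total RNA. Every ribosomal library was below every total library, and the log2 fold change was −3.02 (SE 0.131, adjusted p = 4.4e-19). Ftl1 (ENSMUSG00000050708), the ferritin light chain, had 2.53 to 15.2 CPM (median 9) in ribosomal RNA, against 21.1 to 42.2 CPM (median 31.5) in total RNA, a change of −1.71 (SE 0.131, adjusted p = 8.33e-14), again with no overlap. Both have processed pseudogenes, and their reads may be split by counting. Whether this happens equally in both RNA types was not tested. The parts of the element and of cells between the fibres in the ferritin values were not tested either.

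Slc40a1, the iron exporter ferroportin, had 0 to 22 CPM (median 13.2) in ribosomal RNA, against 14.9 to 47.6 CPM (median 28.6) in total RNA, a log2 fold change of −1.23 (SE 0.187, adjusted p = 4.12e-07). Macrophages make much ferroportin, and macrophage genes were lower as well, as given below, and their part in this value was not tested. Alas2, the erythroid enzyme of haem synthesis, stood at −0.19 (adjusted p = 0.463). Of the 15 tested genes with the element, 4 were called higher, 8 lower and 3 did not pass the test, against 32.7% higher and 41.6% lower of all genes. Tfrc, the transferrin receptor, whose IREs lie in the 3' UTR, had −0.02 (adjusted p = 0.897), and Hfe2, hemojuvelin, was higher by 0.62 (SE 0.0938, adjusted p = 4.11e-07). In controls Fth1 had a log2 fold change of −2.90 and Ftl1 −1.92, and neither differed between genotypes past the threshold (adjusted p = 0.754 and 0.777). These genes were picked from the iron list and by the motif after the ferritin values were seen.

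RNAs outside cytosolic translation were depleted unevenly. The mitochondrially encoded mRNAs mt-Nd1, mt-Cytb, mt-Nd4 and mt-Nd2, subunits of respiratory complexes, had log2 fold changes of −1.90, −2.59, −1.36 and −2.12. The level of mt-Cytb was 203 to 4562 CPM (median 1211) in ribosomal RNA, against 4448 to 11215 CPM (median 8241) in total RNA. In ribosomal RNA its lowest and highest library differed by more than the change between RNA types, with overlap. Of 10 nuclear long non-coding RNAs tested, 9 were called lower, with a median of −2.37. Neat1, the scaffold of paraspeckles, had 82.1 to 371 CPM (median 147) in ribosomal RNA, against 251 to 447 CPM (median 340.2) in total RNA, a log2 fold change of −1.13 (SE 0.143, adjusted p = 1.09e-08). Malat1 (ENSMUSG00000092341), an abundant RNA of nuclear speckles, had 243 to 5601 CPM (median 964) in ribosomal RNA, against 1342 to 4473 CPM (median 1922) in total RNA, a value of −0.60 (adjusted p = 0.118), which became −1.08 (adjusted p = 0.00573) with the mouse as a block. Spliced host transcripts of small nucleolar RNAs gave no common direction, with 1 higher and 5 lower of 12, against 32.7% higher and 41.6% lower of all genes.

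Genes of cells between the fibres were lower in ribosomal RNA. All 25 fibroblast and collagen genes tested were called lower, against 41.6% of all genes, and in 22 of them no ribosomal library reached a total library, against 7.72% of all genes. Their summed level was 727 to 3317 CPM (median 1287) in ribosomal RNA and 4777 to 7906 CPM (median 6500) in total RNA. Dcn, the matrix proteoglycan decorin, had 98.7 to 518 CPM (median 182) in ribosomal RNA, against 758 to 1909 CPM (median 1379) in total RNA, a log2 fold change of −2.83 (SE 0.194, adjusted p = 5.03e-15). Col1a2, a chain of type I collagen, was at −2.76 (SE 0.194, adjusted p = 8.56e-15) and Sparc, a collagen-binding protein, at −1.67 (SE 0.128, adjusted p = 8.23e-14).

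Endothelial genes were lower in 18 of 18 cases, with a median of −2.06. Cdh5, the junction cadherin of endothelium, had 3.14 to 40.9 CPM (median 9.57) in ribosomal RNA, against 52.8 to 80.05 CPM (median 64.1) in total RNA, a log2 fold change of −2.80 (SE 0.204, adjusted p = 2.38e-14). Fabp4, a fatty acid carrier of capillaries and fat, was at −1.41 (SE 0.167, adjusted p = 2.56e-09). Summed endothelial genes held 264 to 1089 CPM (median 441) in ribosomal RNA, against 1126 to 1748 CPM (median 1447) in total RNA.

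Macrophage genes were lower in 20 of 20 cases, with a median of −2.25. Lyz2, lysozyme, had 0 to 12.6 CPM (median 6.26) in ribosomal RNA, against 28.6 to 90.5 CPM (median 60.2) in total RNA, a log2 fold change of −3.36 (SE 0.172, adjusted p = 5.11e-18). Schwann cell and axon genes were lower in 11 of 11, with Pmp22, a protein of peripheral myelin, at −2.78 (SE 0.188, adjusted p = 3.31e-15). Tendon genes were lower in 11 of 12. The member called higher was Scx, the tendon transcription factor scleraxis, with 8.19 to 37.7 CPM (median 21.6) in ribosomal RNA, against 11.1 to 28.4 CPM (median 18.2) in total RNA and a change of 0.31 (SE 0.133, adjusted p = 0.0376), a call that was lost on leaving out 11 of the 28 libraries in turn (adjusted p up to 0.0682) and with the mouse as a block (adjusted p = 0.0578), and whose sign turned under library sizes alone.

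Lists whose members are also made by fibres were mixed. Among adipocyte genes 11 of 13 were lower, while Car3, a carbonic anhydrase that muscle fibres make in quantity, had 4240 to 5594 CPM (median 5236) in ribosomal RNA, against 1422 to 3730 CPM (median 2782) in total RNA, a change of 0.94 (SE 0.0979, adjusted p = 1.37e-10). Lpl, lipoprotein lipase, was lower at −1.26 (SE 0.127, adjusted p = 7.08e-11). Smooth muscle and pericyte genes were lower in 11 of 14, with Rgs5, a pericyte signalling regulator, at −1.67 (SE 0.148, adjusted p = 3.33e-12). The shared member Des, desmin, was at 0.16 (adjusted p = 0.141). Satellite cell genes were lower in 6 and higher in 2 of 11, against 41.6% lower and 32.7% higher of all genes. Haemoglobin Hbb-bs had 146 to 606 CPM (median 235) in ribosomal RNA, against 357 to 1326 CPM (median 841) in total RNA, at −1.67 (SE 0.176, adjusted p = 1.77e-10), while Bpgm, an enzyme of red cells, was higher by 0.95 (SE 0.0972, adjusted p = 1.01e-10). Ighm, the only lymphocyte gene of 13 that was tested, stood at −0.41 (adjusted p = 0.0949), and became −0.51 (adjusted p = 0.015) with the mouse as a block. Liver transcripts were lower in 14 of 15. Both tested neutrophil genes were lower.

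**Figure D3:**
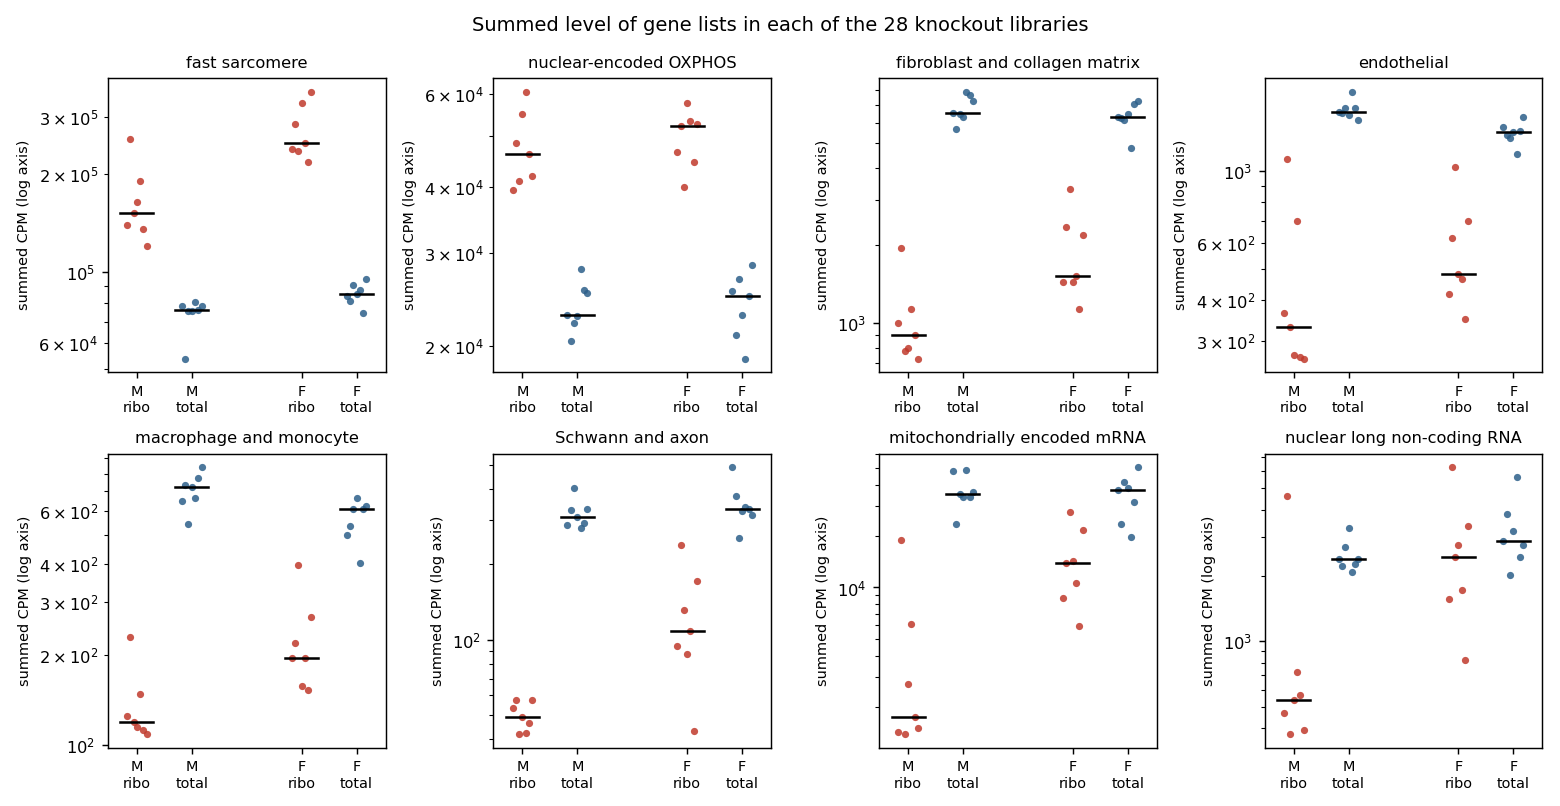
Summed CPM of the genes of 8 lists in each knockout library, on a log axis, for males (M) and females (F), ribosomal RNA (ribo, red) left of total RNA (blue), with a bar at the median of 7 libraries. Fast sarcomere and OXPHOS sums lie higher in ribosomal RNA and those of fibroblast, endothelial, macrophage and Schwann genes lower, without overlap, while mitochondrial mRNA sums overlap in females and nuclear RNA sums overlap in females and in male library 2.

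AU-rich mRNAs and published HuR targets were looked at because HuR binds them. Of 27 genes tested, 6 were called higher, 15 lower and 6 did not pass the test, against 32.7% higher and 41.6% lower of all genes. Their median was −0.47 on the log2 scale, below the −0.11 of all genes. Npm1, nucleophosmin, had 209 to 368 CPM (median 251) in ribosomal RNA, against 119 to 177 CPM (median 136) in total RNA, a change of 0.92 (SE 0.078, adjusted p = 1.11e-12). Cycs, cytochrome c, and Jun were at 0.30 and 0.35, and both fell below 0 under library sizes alone. Mcl1, a survival factor, was at 0.01 (adjusted p = 0.914). Of these 27 targets 1, Utrn, differed between knockouts and controls past the threshold, against 2.02% of all genes. Proteins that bind AU-rich elements were higher in 5 and lower in 8 of 16, near the shares of all genes, with Rbm24, a muscle splicing factor, at 0.78 (SE 0.0713, adjusted p = 6.85e-12) and Mbnl1, muscleblind, at −0.55 (SE 0.0837, adjusted p = 4.36e-07).

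The pentamer ATTTA, the core of the AU-rich element, was counted on the sense strand of the 3' UTR of the longest coding model of each gene. Median log2 fold changes were 0.16 over 3478 genes with none, −0.07 over 3385 with 1 to 2, −0.34 over 2152 with 3 to 5 and −0.46 over 1826 with 6 or more. Median 3' UTR length rose over the same classes, at 354, 913, 1769 and 3240 bases. The nonamer TTATTTATT, which contains the pentamer, was found in 7.32% of the 3' UTRs, and those 794 genes had a median of −0.24, against −0.12 in the other 10047. Among 3' UTRs of 1000 to under 2000 bases the medians were −0.26 over 190 genes with it and −0.25 over 2430 without. Among those of 2000 to under 4000 bases they were −0.16 over 266 genes with it and −0.31 over 1877 without. The medians of the difference between knockouts and controls were 0.01 with the nonamer and −0.03 without it.

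Log2 fold changes were lower in longer genes. The 10971 tested genes with a coding model were put into 10 bins of like size by length. By span with introns, the median log2 fold change was 0.28 in the bin of shortest genes and −0.62 in that of longest. By coding length it was 0.24 in the shortest bin and −0.48 in the longest. Genes higher past 2-fold had a median 3' UTR of 452 bases and those lower past 2-fold 1244 bases. Spearman's rho with the log2 fold change was −0.25 for gene span, −0.19 for coding length, −0.18 for 3' UTR length and −0.24 for the AT share of the 3' UTR. These are descriptions across genes, which are not independent replicates, and the properties are related to one another.

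**Figure D4:**
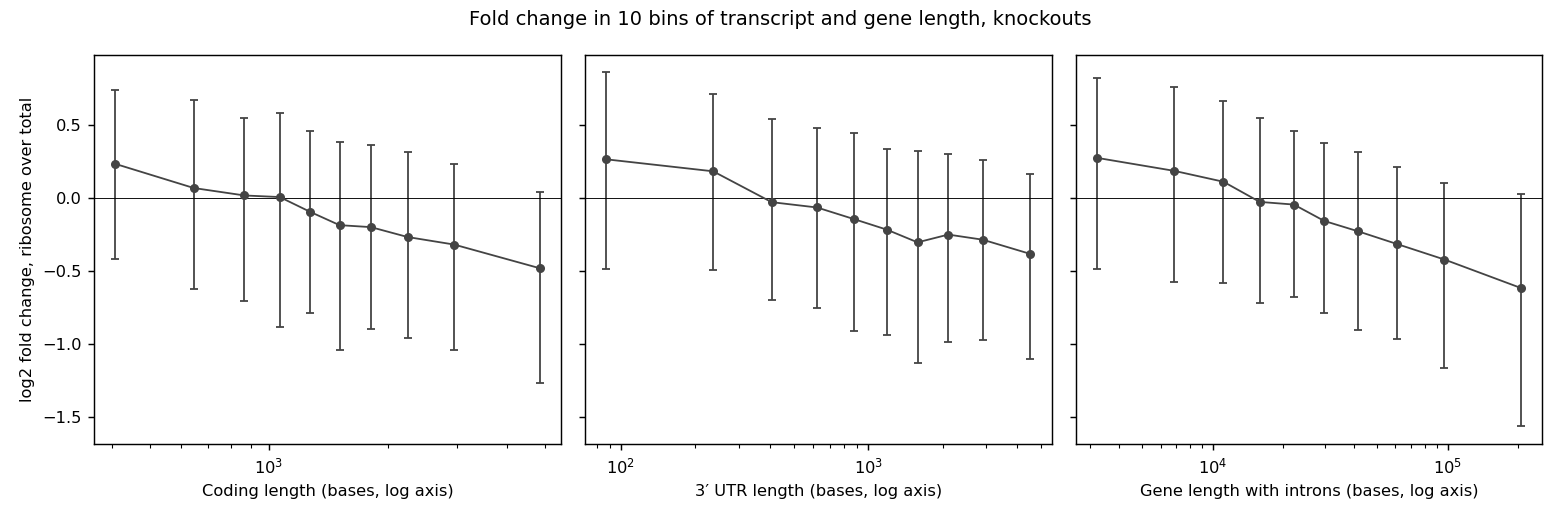
Median log2 fold change, ribosomal over total RNA in knockouts, in 10 bins of the tested genes by coding length, 3' UTR length and gene length with introns, each in bases on a log axis. Points are medians, bars run between the quartiles of the genes in a bin, and the median is 0.28 in the shortest and −0.62 in the longest bin of gene length.

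The ratio of ribosomal to total RNA was also taken within each sex, which asks whether male and female knockouts share it. In males 8053 genes (67.8%) were called and in females 7752 (65.3%). Of 6185 genes called in both sexes, 123 had opposite signs. The difference between the sexes was called for 2323 genes (19.6%), with 1082 (9.11%) higher and 1241 (10.4%) lower in males. Under library sizes alone the split was 2802 higher and 516 lower, and the median of all genes for this difference moved to 0.30, from −0.02 with TMM. Without ribosomal libraries under 0.75 M counts 1534 genes were called.

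Mitochondrial RNAs and genes of several other cell types had lower ratios in males than in females. The 8 mitochondrial mRNAs had a median of −3.43 in males and −1.52 in females, with mt-Cytb at −3.59 and −1.68 (difference −1.91 (SE 0.584, adjusted p = 0.0191)), and 6 of the 8 were called lower in males. The tRNA gene mt-Tm was at −4.49 in males and −0.87 in females. Fibroblast and collagen genes had medians of −3.25 and −1.96, and 20 of 25 were called lower in males, against 10.4% of all genes. Macrophage genes were called lower in males in 10 of 20 cases, endothelial genes in 10 of 18, smooth muscle and pericyte genes in 5 of 14 and Schwann and axon genes in 4 of 11. Of further cell types, 3 of 11 satellite cell, 2 of 7 erythroid, 2 of 12 tendon, 1 of 13 adipocyte and 0 of 2 neutrophil genes were called lower in males. So were 3 of 10 nuclear long non-coding RNAs and 1 of 15 liver transcripts. Among these lists and that of lymphocytes, a nuclear RNA, an adipocyte gene, a smooth muscle gene and Ighm were called higher in males. Gsn, gelsolin, for one, had 76.6 to 311 CPM (median 101) in male and 139 to 700.1 CPM (median 261) in female ribosomal RNA. Fast sarcomere genes had medians of 1.08 in males and 1.63 in females, with 7 of 18 called lower in males. Several other lists of fibre and translation genes held many calls too, in both directions. In males 27 of 78 cytosolic ribosomal protein genes were called lower and 14 higher. Proteasome genes were lower in 11 and higher in 3 of 31. Nuclear OXPHOS genes were lower in 4 and higher in 17 of 47, and Krebs cycle genes in 1 and 7 of 20. Of all genes, 10.4% were lower and 9.11% higher.

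Myh4 had 8530 to 16683 CPM (median 12031) in male ribosomal RNA and 17993 to 42376 CPM (median 31429) in female ribosomal RNA (difference of log2 fold changes −1.10 (SE 0.245, adjusted p = 0.00172)). Among single genes higher in males were Mrps21, a mitochondrial ribosomal protein, at 2.62 (SE 0.358, adjusted p = 1.32e-05), and Dusp13, a phosphatase of muscle and testis, at 1.91 (SE 0.249, adjusted p = 5.69e-06). Gapdh, the glycolytic enzyme, differed by 2.07 (SE 0.268, adjusted p = 5.43e-06), but it held only 42.3 to 100.3 CPM (median 77.2) in total RNA and has many pseudogenes, so its counts are uncertain. Xist, the RNA of the inactive X chromosome, is not made in males to speak of, and its difference of 3.59 (SE 0.983, adjusted p = 0.00935) rests on few male reads.

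Library properties moved with sex. Male knockout ribosomal libraries held 0.160 to 3.58 M gene counts (median 1.86 M) and female ones 0.491 to 1.21 M (median 0.937 M). Reads outside genes were 5.37 to 12.2% (median 5.58%) in male and 6.53 to 12.5% (median 9.11%) in female ones. Mitochondrial genes gave 0.299 to 0.804% of the counts in male ribosomal libraries other than library 2 (3.01%), and 1.52 to 4.77% in female ones. Nuclear long non-coding RNAs summed to 376 to 4627 CPM (median 540.1) in male and 821 to 6237 CPM (median 2444) in female ribosomal libraries, and fibroblast genes to 727 to 1957 CPM (median 899) and 1134 to 3317 CPM (median 1516). The part of these properties in the sex difference was not tested.

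Controls of the same design were set beside the knockouts to ask where the ratio differs with the label. The log2 fold changes of knockouts and controls had r = 0.934 across 12546 genes, which are not replicates. Of 8648 genes called in both, 14 had opposite signs. The difference between genotypes was called for 254 genes (2.02%), 131 higher (1.04%) and 123 lower (0.98%) in knockouts. Past 2-fold there were 62 higher (0.494%) and 12 lower (0.0956%). Of the 131 higher, 121 had a log2 fold change below 0 in controls, and of the 123 lower 87 had one above 0, while 53.9% of all genes were below 0 in controls. Since the difference subtracts the control ratio, choosing genes by it favours such signs.

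Fewer genes passed within males than within females. Taken within a sex from the same fit, the difference was called for 16 genes (0.128%) in males and 434 (3.46%) in females, contrasts added after the data were seen. Of the 254 genes, 9 were called in males and 158 in females, and the sign was that over both sexes for 246 in males and 254 in females. A test of the difference between the sexes called 13 genes (0.104%), and for most of the genes named below a difference between the sexes was not shown. Malat1 was at 1.43 in males and 2.51 in females, Ttn at 0.79 in males and 1.42 in females, and Myh11 at 0.67 in males and 2.77 in females, with the female values of these 3 past the threshold and the male values not. Of the genes named below, Fn1 passed the test between sexes: it was at −0.31 in males and 1.69 in females (difference −2.002 (SE 0.366, adjusted p = 0.0113)). Utrn was at −0.01 in males and 1.16 in females (adjusted p = 0.0857 for the difference). In males Tanc1 and Ggh were the genes named below that passed, at −1.09 and −1.49.

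The largest rises were of nuclear RNAs. Malat1 had 246 to 5581 CPM (median 969.9) in knockout ribosomal RNA, against 174 to 1175 CPM (median 354) in control ribosomal RNA, and the log2 difference of ratios was 1.97 (SE 0.41, adjusted p = 0.00563). Kcnq1ot1, an imprinted antisense RNA, differed by 2.12 (SE 0.379, adjusted p = 0.000722), Neat1 by 1.32 (SE 0.196, adjusted p = 4.44e-05) and Xist by 2.44 (SE 0.599, adjusted p = 0.0191). The Xist value averages both sexes, and its male part rests on few reads. Within a sex it was 1.95 (SE 1.05, adjusted p = 0.607) in males and 2.93 (SE 0.479, adjusted p = 0.000161) in females. Kcnq1ot1 overlaps Kcnq1 on the other strand, and the strand setting of the counting is not given in the sources used here, so the reads of both genes cannot be told apart. Myh11, smooth muscle myosin, differed by 1.72 (SE 0.296, adjusted p = 0.000414), and Myo5c, an unconventional myosin, by 1.46 (SE 0.37, adjusted p = 0.0229), with the call of Myo5c lost without female knockout ribosomal library 1 (adjusted p = 0.0602) and without female control ribosomal library 15.

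Genes of the sarcomere and of the dystrophin complex were next. Ttn had 6385 to 19468 CPM (median 8934) in knockout ribosomal RNA, against 3619 to 11316 CPM (median 6798) in control ribosomal RNA. Its total RNA held 5952 to 24316 CPM (median 9475) in knockouts, against 7841 to 29454 CPM (median 14058) in controls, and the log2 difference of ratios was 1.11 (SE 0.241, adjusted p = 0.00783). Neb differed by 0.55 (SE 0.148, adjusted p = 0.0325), Dmd by 0.70 (SE 0.192, adjusted p = 0.0362) and Utrn by 0.57 (SE 0.152, adjusted p = 0.0295). The heavy chains Myh1, Myh2 and Myh7, the last the slow form, differed by 0.89 (SE 0.202, adjusted p = 0.0113), 0.93 (SE 0.192, adjusted p = 0.00505) and 1.23 (SE 0.26, adjusted p = 0.0067). Myh4, the most abundant chain, was at 0.61 (adjusted p = 0.11). On leaving out each of the 56 libraries in turn, the call was lost in 18 cases for Dmd (adjusted p up to 0.0743), 7 for Neb (up to 0.0617) and 4 for Utrn (up to 0.0704), and the mouse as a block gave Neb an adjusted p = 0.0614. These were picked out of their lists after their values were seen.

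Other members of lists with a called difference were Cdh5 at 1.14 (SE 0.267, adjusted p = 0.0133), Pecam1, an endothelial adhesion molecule, at 0.77 (SE 0.198, adjusted p = 0.0245) and Fn1, fibronectin, at 0.69 (SE 0.183, adjusted p = 0.0295). Lower in knockouts were Hadh, an enzyme of fatty acid oxidation, at −0.44 (SE 0.117, adjusted p = 0.0314) and Cox7b, a cytochrome oxidase subunit, at −0.58 (SE 0.155, adjusted p = 0.0312). Leaving out 1 library at a time ended the call in 8 cases for Fn1 (adjusted p up to 0.0712), 4 for Hadh, 2 for Cox7b and 1, without female knockout ribosomal library 5, for Pecam1 (adjusted p = 0.0715). With the mouse as a block Pecam1 had an adjusted p = 0.0557 and Fn1 0.0651.

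The 5 largest falls were of low-level genes. Tanc1, a scaffold protein of synapses, had 8.2 to 35.8 CPM (median 16.8) in knockout ribosomal RNA, against 29.95 to 99.9 CPM (median 60.5) in control ribosomal RNA, and a log2 difference of ratios of −0.96 (SE 0.166, adjusted p = 0.000414). Iqgap2, a cytoskeletal scaffold, differed by −1.30 (SE 0.334, adjusted p = 0.0245), which with the mouse as a block became −1.29 (adjusted p = 0.0541). Ggh, a folate-processing hydrolase, differed by −1.24 (SE 0.264, adjusted p = 0.00692) and Fibin by −1.01 (SE 0.249, adjusted p = 0.0193). Gpx8, an ER peroxidase, differed by −1.08 (SE 0.31, adjusted p = 0.0486), or −1.10 (adjusted p = 0.0524) with the block, and its call was lost on leaving out 29 of the 56 libraries in turn. Mss51, a muscle protein at mitochondria that earlier results of these data named, had 322 to 1001 CPM (median 647) in knockout ribosomal RNA, against 67.7 to 469 CPM (median 194) in control ribosomal RNA, and its ratio differed by 0.37 (adjusted p = 0.433).

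Marker sums of ribosomal libraries differed with genotype, by more in females than in males in their medians. In females, nuclear long non-coding RNAs summed to 828 to 6213 CPM (median 2441) in knockout ribosomal libraries, against 254 to 949.9 CPM (median 445) in control ones. Female mitochondrial mRNA sums were 6006 to 27661 CPM (median 13874) in knockouts, against 1635 to 7179 CPM (median 2843) in controls, and fibroblast sums 1145 to 3313 CPM (median 1519) in knockouts, against 709 to 905 CPM (median 790.5) in controls. The female ranges did not overlap for fibroblast genes and overlapped for the other 2 sums. In males, nuclear RNA sums were 379 to 4633 CPM (median 544) in knockouts, against 315 to 1412 CPM (median 479.7) in controls, mitochondrial sums 1395 to 19024 CPM (median 1752), against 1574 to 9390 CPM (median 2212) in controls, and fibroblast sums 733 to 1960 CPM (median 907), against 568 to 986 CPM (median 793) in controls. These male ranges overlapped, and the male mitochondrial median was lower in knockouts. Their part in the genotype difference was not tested. The count of 254 fell to 138 without female control ribosomal library 15 and rose to 451 without female knockout total library 9 and 408 without male control ribosomal library 20.

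**Figure D5:**
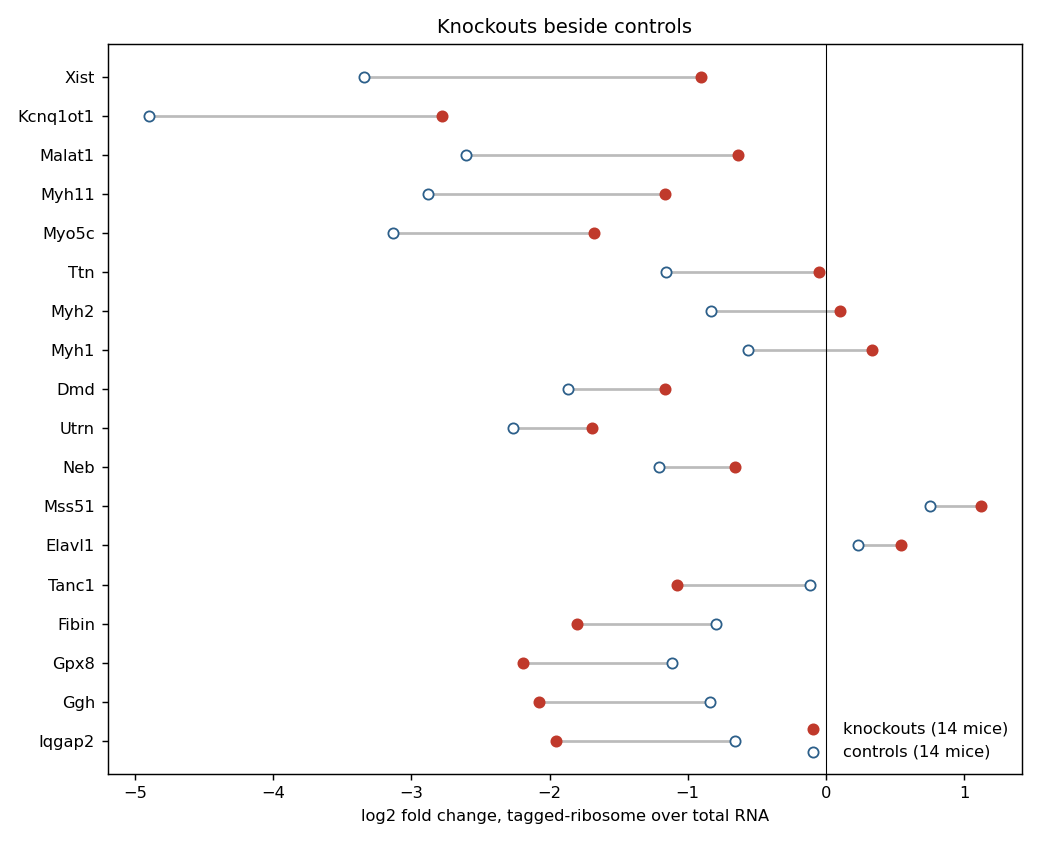
Log2 fold change, ribosomal over total RNA, in knockouts (filled red) and controls (open blue) of 14 mice each, for the genes with the largest called differences and for Ttn, Neb, Myh1, Myh2, Dmd, Utrn, Elavl1 and Mss51. Lines join the 2 genotypes of a gene, and the difference was not called for Elavl1 (0.31) and Mss51 (0.37).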

How the data were processed

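The deposited table holds whole read counts per gene for 56 libraries. Per the labels' protocols, 3' libraries (Lexogen Quant-Seq) were read as 50 bp forward reads, from 500 ng of RNA each. UMI-tools, STAR, HTSeq and build GRCm39 are named in the submitters' processing notes, as are R 4.3.0 and DESeq2 1.40.1. Versions of the aligner and counter, the annotation and the strand setting are not given in the sources used here. The 5 summary lines of HTSeq were left out of library sizes. In knockouts, reads outside genes were 5.37 to 12.5% of ribosomal and 9.54 to 21.6% of total libraries, and reads not uniquely aligned were 17.2 to 23.0% and 14.1 to 18.8%. Gene names came from GENCODE M21 (GRCm38), which matched 52029 of 57010 identifiers and 97.6% of the counts. No coordinates of that build were joined to the counts.

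Tests on the deposited counts used edgeR 4.0.16 under R 4.3.3, with filterByExpr by group, TMM factors and the quasi-likelihood F-test. Sex was a covariate for the 28 knockout libraries, the sexes and their difference came from 4 group means, and the difference between knockouts and controls came from 8 group means of all 56 libraries. Calls were made at p under 0.05 after Benjamini-Hochberg adjustment over all genes tested. Standard errors are log2 fold changes divided by the square root of F. Simulated counts with 200 changed genes among 11879 gave 87% recovered at a log2 change of 1 and 37% at 0.5 for ribosomal over total in knockouts, with 4 unchanged genes called. The changed genes went up and down alike. In the data 74.3% of genes differed, with more falls than rises, so the simulation does not measure recovery or false calls there. DESeq2 1.42.0 and limma 3.58.1 were used in alternatives.

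Named genes are the 12 largest rises and falls with a mean of at least 20 CPM, the 4 members of highest mean CPM per list, the 5 largest differences each way between sexes and genotypes with at least 10 CPM, and Elavl1. Others are marked where they appear. The comparison, the 43 lists and the tests were chosen with earlier results of these data known, and 1 list, of genes changed on HuR loss, came from them and supports nothing: 7 of its 15 tested genes were higher and 3 lower.

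Ribosomal and total libraries of the same number, sex and genotype were taken as 1 mouse, since the labels count 14 female and 14 male mice while the design text counts 7 of each sex. Deviations of such pairs from group means had a mean correlation of 0.217 in females and 0.126 in males over 500 genes, with single pairs down to −0.147 and −0.211, and 5 of 7 female and 3 of 7 male ribosomal libraries matched their own total library best. Statements on numbers of mice rest on this pairing by label. The title of male knockout total library 13 names another RNA type than its RNA type label, which was followed. Results not reported here include some that the naming rule covers.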

Additional observations from a re-analysis of the deposited data

Results flagged for a closer look

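In 76 groups of 7 libraries looked at, 11 held a library far from the other 6, where chance alone gives about 1 in 20 groups, and the measures are related. Male knockout ribosomal library 2 accounted for 7 of them: 3.01% of its counts came from mitochondrial genes, 12.2% of its reads lay outside genes, and its summed levels were 19000 CPM for mitochondrial mRNA, 4627 CPM for nuclear long non-coding RNA, 1957 CPM for fibroblast and collagen genes, 2187 CPM for smooth muscle and pericyte genes and 229 CPM for macrophage genes. In the total library of the same number 5.50% of the counts came from mitochondrial genes and Elavl1 stood at 43.5 CPM, both the lowest of the 7. Male knockout total library 12 had the highest endothelial sum, 1748 CPM, and the highest tendon sum, 844 CPM.

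The ratio of ribosomal to total RNA differed between male and female knockouts for 2323 genes by a test of the difference. Of the named genes, those lower in males were mt-Tm (−3.62), mt-Tl1 (−3.12), mt-Tp (−3.01), mt-Ti (−2.96) and Hmgb1-ps8 (−2.94), and those higher were Xist (3.59), Mrps21 (2.62), Gapdh (2.07) and Dusp13 (1.91), each as a log2 difference, males minus females. Several of the largest rises and falls over both sexes differed too: mt-Ta by −2.80, mt-Tv by −2.76, Snord89 by −2.32, mt-Tq by −2.28, Snord13 by −1.91, Taco1 by −1.62, Lrtm1 and Aspn by −1.31 each, Ggnbp1 by −1.26, Ccdc85b by −1.17, Serping1 by −1.15, Mybpc2 by −1.11, Med29 by −1.07, Coq7 by −0.87, Pgam2 by −0.84, Atg101 by −0.78 and Chchd2 by −0.76.

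Between knockouts and controls the ratio differed for 254 genes by a test of the difference. As log2 differences, knockouts minus controls, the named genes were Xist (2.44), Kcnq1ot1 (2.12), Malat1 (1.97), Myh11 (1.72) and Myo5c (1.46) above 0, and Iqgap2 (−1.30), Ggh (−1.24), Gpx8 (−1.08), Fibin (−1.01) and Tanc1 (−0.96) below it. The value of Xist averages both sexes, and its male part rests on few reads. The difference between knockouts and controls itself differed between the sexes for 13 genes, and of the named genes Fn1 was among them (−2.002, males minus females).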

How the results depend on the processing

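The count of genes called for ribosomal over total in knockouts stayed within 1.5 times the main 8823 under each alternative run except where a direction is given here. Scaling by library sizes alone gave 1660 higher and 7457 lower (276 and 4171 past 2-fold), no filter beyond 1 count gave 7796 lower (1830 higher and 5583 lower past 2-fold), and library sizes alone gave 1839 higher in males and 1207 higher and 7839 lower in females. The sex difference gave 2802 higher and 516 lower under library sizes alone, and 1534 in all (710 higher and 824 lower) without ribosomal libraries under 0.75 M counts. For the difference between knockouts and controls, library sizes alone gave 126 (66 higher, 60 lower), limma-voom 391 (201 lower), DESeq2 214 higher, and leaving out the shallow libraries 187 lower. Taken within a sex, an alternative chosen after seeing the data, the same difference gave 16 genes (4 higher, 12 lower) in males, where Utrn (−0.013) and Fn1 (−0.31) changed sign, and 434 (232 higher, 202 lower) in females. Library sizes alone moved the median of all genes to −0.62 from −0.11 for ribosomal over total, and to 0.30 from −0.02 for males minus females.

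The mouse as a block gave 8676 genes (3796 higher, 4880 lower), of which 8544 were shared with the 8823, with 0 of opposite sign by edgeR, 8101 genes in males, 7680 in females, 2267 for the sexes and 215 for the genotypes. Among named genes the block ended the calls of Gas5 (adjusted p = 0.071) and Dusp13 (adjusted p = 0.0624) for ribosomal over total in knockouts and those of Scx, Iqgap2, Gpx8, Neb, Pecam1 and Fn1 given in the text, made calls of Smox (0.36, adjusted p = 0.0154) and Kap (−1.87, adjusted p = 0.0162) and of Malat1 and Ighm, given in the text, and changed no other call of a named gene.

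Leaving out each library in turn gave 8795 to 8944 genes in knockouts (3789 to 3936 higher, 4933 to 5048 lower, 1082 to 1183 and 2736 to 2829 past 2-fold), 7873 to 8205 in males, 7373 to 7856 in females, 1944 to 2692 for the sexes, and 138 to 451 for the genotypes (80 to 214 higher, 58 to 242 lower). The count of genes lower in knockouts than in controls passed 1.5 times also without female control ribosomal libraries 18 and 19 (195 each) and female knockout ribosomal library 10 (192).

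Under library sizes alone these named genes, positive with TMM, were negative on the log2 scale: Elavl1 −0.00074, Trdn −0.093, Mrln −0.28, 1810037I17Rik −0.13, Chrnb1 −0.37, Dtna −0.28, Maf −0.11, Tead1 −0.0799, Mdh2 −0.11, Pdha1 −0.025, Sdhb −0.13, Mdh1 −0.15, Snhg6 −0.45, Eif4g2 −0.094, Eif1 −0.057, Atf5 −0.023, Gpx3 −0.15, Hspb6 −0.19, Calr −0.25, Hist1h1c −0.33, Hist1h2be −0.45, Cycs −0.24, Mcl1 −0.53, Jun −0.20, Mbnl2 −0.40, Des −0.40, Itga7 −0.26, Sdc4 −0.45, Myh2 −0.47, Hadh −0.40, Cox7b −0.47, Lmod1 −0.036 and Scx −0.20. These list medians did likewise: glycolysis −0.0063, neuromuscular junction −0.16, TCA cycle −0.17, uORF-regulated stress mRNAs −0.19, selenoproteins −0.36 and replication-dependent histones −0.0303. Depth limits low genes most, since the shallowest ribosomal library held 0.160 M counts.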

Other observations

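Replication-dependent histone mRNAs, which end in a stem-loop and not in a poly(A) tail, were counted by a method that primes on poly(A). The list of these genes also held H1f0, which is not replication-dependent. Of its 6 tested genes 4, H1f0 among them, were called higher in ribosomal RNA of knockouts, against 32.7% of all genes. The list median, H1f0 included, was 0.51 on the log2 scale and fell below 0 under library sizes alone. Hist1h1e was at 1.06 and Hist1h1c at 0.22, while Hist1h2bc at 0.26 (adjusted p = 0.0616) and Hist1h2be at 0.04 (adjusted p = 0.814) were not called. Hist1h4i had 121 to 301 CPM (median 169) in ribosomal RNA, against 41.6 to 129 CPM (median 71.3) in total RNA, a log2 fold change of 1.39 (SE 0.0957, adjusted p = 5.5e-15). H1f0, a replacement linker histone listed with them, was at 0.77 (SE 0.0747, adjusted p = 2.83e-11).

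Transcripts of kidney appeared in single libraries of muscle. Summed over 15 genes they reached 336 CPM in male knockout ribosomal library 1 and 1204 CPM in male knockout total library 6, while the median was 14.5 CPM in the 14 ribosomal and 24.8 CPM in the 14 total libraries. Kap, an androgen-dependent gene of the mouse kidney, had 0 to 177 CPM (median 1.84) in ribosomal RNA, against 0.205 to 585 CPM (median 7.16) in total RNA, and its log2 fold change of −1.66 (adjusted p = 0.0702) rested on few libraries.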
